A study of Mus musculus with 28 samples.

Results

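Expression of 9 tumor suppressor genes that are recurrently lost or mutated in mesothelioma was followed in 28 AB1-HA tumors: Cdkn2a, Cdkn2b, Mtap, Trp53, Nf2, Lats1, Lats2, Bap1 and Setd2. They were picked by symbol from the 55341 gene rows of the RNA-seq count matrices, and all 9 were present. All passed the filter on low counts in both matrices and in the model of all 28 tumors. The pass of Cdkn2a depended on the groups in the fit, as it failed in 5 of 11 comparisons with only 2 groups. AB1-HA is a mouse mesothelioma line that carries an influenza hemagglutinin transgene, and it was grown under the skin of the right flank of BALB/c.AusBP mice. There were 4 tumors treated with PBS, the control, and 5 with immune checkpoint blockade (ICB: 1 dose of anti-CTLA-4 and 3 doses of anti-PD-L1, 100 µg each). A further 5 tumors received 5-fluorouracil (5-FU, 75 mg/kg, intravenous), 4 received cisplatin (6 mg/kg, intraperitoneal), 5 received 5-FU+ICB and 5 received cisplatin+ICB. Each tumor came from a different mouse and was taken on day 7. Whole tumors were extracted, so RNA of tumor cells and of host cells was measured together, and in such bulk samples fewer cells of a type and less RNA per cell cannot be told apart. Tumors grown in the flank also lack the pleural setting of the human disease.

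The Cdkn2a locus encodes the CDK4/6 inhibitor p16Ink4a and, from a separate first exon, p19Arf, which shields p53 from MDM2. Cdkn2b next to it encodes the related inhibitor p15Ink4b, and Mtap, the methionine salvage enzyme that degrades methylthioadenosine, lies on the far side and is often lost with the locus in human mesothelioma. Trp53 encodes the transcription factor p53. Nf2 encodes merlin, an upstream activator of the Hippo pathway, whose kinases LATS1 and LATS2 phosphorylate and restrain the coactivators YAP and TAZ. Bap1 encodes a nuclear deubiquitinase that removes ubiquitin from histone H2A, and Setd2 encodes the methyltransferase that trimethylates lysine 36 of histone H3.

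On mm10 (GRCm38) 3 of the genes lie side by side on chromosome 4. Cdkn2a (ENSMUSG00000044303.6) spans chr4:89274471-89294653 on the minus strand. Cdkn2b (ENSMUSG00000073802.5) spans chr4:89306299-89311039 on the same strand, its start 16.4 kb from that of Cdkn2a. Mtap (ENSMUSG00000062937.7) spans chr4:89137122-89181081 on the plus strand. Cdkn2a has 2 annotated transcripts with distant starts, and the gene-level counts pool them, so p16Ink4a and p19Arf could not be separated. The sequences upstream of both starts and of the Cdkn2b start are shown because these neighbouring genes had the lowest counts of the 9 and the largest differences between groups. Each is the window from 250 to 51 bases before the RefSeq start, read 5′ to 3′ on the minus strand of GRCm38.p6, at chr4:89294670-89294869, chr4:89282243-89282442 and chr4:89311083-89311282 in turn, with no letters set in capitals.
Cdkn2a distal start: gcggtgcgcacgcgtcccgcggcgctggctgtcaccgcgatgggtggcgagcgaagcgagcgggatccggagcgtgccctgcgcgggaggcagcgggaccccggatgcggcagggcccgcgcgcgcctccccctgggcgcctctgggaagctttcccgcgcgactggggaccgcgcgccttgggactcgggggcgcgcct
Cdkn2a proximal start: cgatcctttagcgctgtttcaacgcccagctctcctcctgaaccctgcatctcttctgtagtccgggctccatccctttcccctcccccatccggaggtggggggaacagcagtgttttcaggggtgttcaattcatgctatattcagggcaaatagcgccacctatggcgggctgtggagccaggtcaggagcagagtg
Cdkn2b start: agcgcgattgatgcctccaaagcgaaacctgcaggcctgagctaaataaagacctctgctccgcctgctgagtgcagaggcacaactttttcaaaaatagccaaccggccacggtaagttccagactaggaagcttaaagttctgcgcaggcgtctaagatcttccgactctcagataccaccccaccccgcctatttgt
The window of the distal Cdkn2a start was 79% G and C, against 57.5% at the proximal start and 52% at Cdkn2b. None of the 5 motifs searched on both strands occurred in these windows: a core of the interferon-stimulated response element (in 2.4% of 32851 RefSeq promoters), TTCNNNGAA (5.76%), TGANTCA (5.57%), GGGCGG (24.6%) and TATAAA (9.14%). This says only that these letters are not in these windows.

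The 28 libraries held 23541733 to 33950805 counts (median 28797552). Levels are given as CPM, counts scaled to a fixed library total after trimmed-mean correction (TMM), and 3 counts, taken as the detection floor, came to 0.0821 to 0.159 CPM. Some tumors stood apart. In 5-FU+ICB tumor 5, mesothelin (Msln), a mesothelial surface marker, had 10 counts (0.499 CPM, against 271 to 358 CPM in the PBS tumors), 16.1% of counts were mitochondrial and skeletal muscle markers summed to 4323 CPM, the highest of the 28 tumors. In cisplatin+ICB tumor 1, genes with a coding transcript of at least 6000 bases held 3.96% of protein-coding counts, against a median of 13.1% over the 28 tumors. The share was also under 10% in PBS tumors 1 (9.02%) and 2 (6.92%), cisplatin tumor 4 (8.87%) and 5-FU+ICB tumor 5 (8.21%). Among mesothelial markers, Msln and podoplanin (Pdpn) were expressed, whereas Upk3b was at or under the floor in 28 of 28 tumors, Lrrn4 in 15 and Krt18 in 17. Wt1 had a median of 0.597 CPM and Calb2 of 0.236 CPM.

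By median level over the 28 tumors, 1 of the 9 genes was near absent (under 0.5 CPM), 1 was low (0.5 to 5 CPM) and 7 were expressed. Cdkn2a was near absent, with a median of 0.295 CPM and a range of 0 to 3.79 CPM, and it was at or under the floor in 5 tumors. Cdkn2b was low at 0.519 CPM (0.0332 to 4.29 CPM), barely over that cut-off, and at or under the floor in 2 tumors. Mtap, on the other side of Cdkn2a, was expressed in every tumor at a median of 12.1 CPM (7.17 to 46.3). The remaining genes had medians of 137 CPM for Trp53, 116 for Nf2, 98.3 for Setd2, 81.3 for Lats1, 60.7 for Bap1 and 52.6 for Lats2. Compared per kilobase of the longest coding transcript, the mean level was 77.9 CPM/kb for Trp53. That placed it at the 94.3 percentile of 14944 genes, only those that passed the filter on low counts and have a coding transcript. Next came Nf2 (26.0), Bap1 (19.1), Lats1 (11.3), Setd2 (10.9), Lats2 (9.82) and Mtap (5.34). Cdkn2a had 0.738 CPM/kb (the 18.1 percentile) and Cdkn2b 0.633 CPM/kb (the 17.0 percentile). Cdkn2a and Cdkn2b lay close together in this order. The order of the others depends on the transcript length used: with the median length of the coding transcripts, Nf2 had 68.4 CPM/kb, Lats2 58.9, Setd2 31.4 and Lats1 19.5, while Trp53 (79.9) stayed first and Mtap, Cdkn2a and Cdkn2b last.

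**Figure D1:**
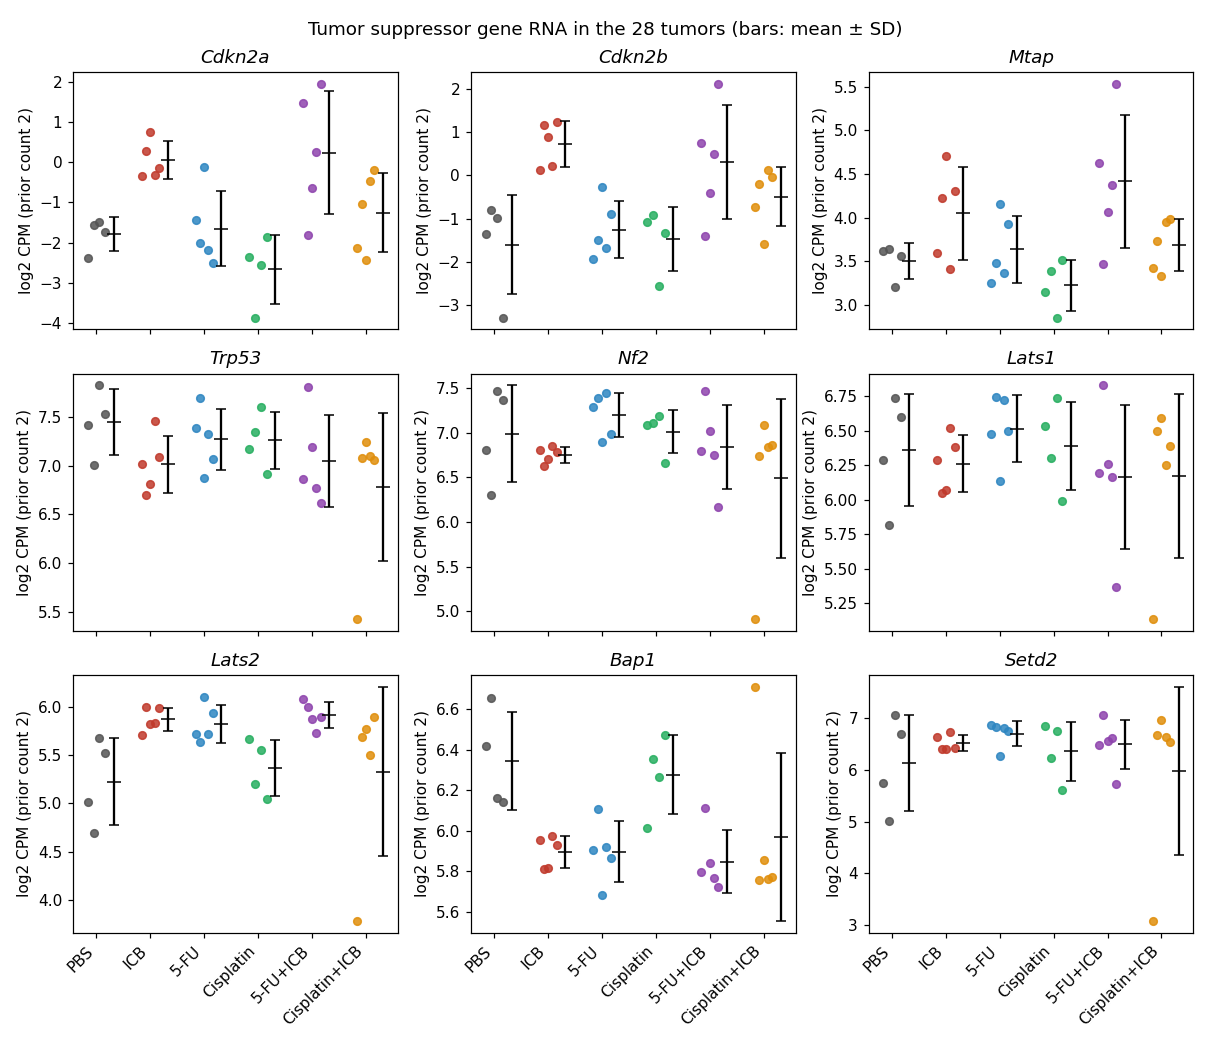
Log2 CPM with a prior count of 2 (y axes) of each gene in each of the 28 tumors, by treatment group (x axes); points are tumors and bars are the group mean ± SD. Cdkn2a and Cdkn2b lay below 5 CPM in every tumor and spread widely, whereas the other genes stayed above 5 CPM, and cisplatin+ICB tumor 1 is the low point of Setd2, Trp53, Nf2, Lats1 and Lats2 in its group.

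Over the 6 groups in 1 model, 3 of the 9 genes differed (edgeR quasi-likelihood F-test, Benjamini-Hochberg adjusted p under 0.05 over 18521 genes), where 31% of all genes tested did. These were the chromosome 4 genes Cdkn2a (adjusted p = 0.00262), Cdkn2b (0.00455) and Mtap (0.0136). Bap1 had an adjusted p of 0.0640 and Lats2 of 0.156. For Nf2 (0.505), Trp53 (0.506), Lats1 (0.857) and Setd2 (0.971) no difference passed the test. The highest group mean was 15.5 times the lowest for Cdkn2a, 5.19 times for Cdkn2b and 2.53 times for Mtap, and 1.23 to 1.56 times for the other 6 genes. Leaving out cisplatin+ICB tumor 1, 5 genes differed, Lats2 (adjusted p = 0.00719) and Bap1 (0.000618) having joined, but the share of all genes that differed rose as well, from 31% to 52.7%, so the rise is no result about the 9 genes.

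A gene was called changed between 2 groups where the edgeR adjusted p was under 0.05 and the log2 fold change (log2FC, with its standard error, SE) was over 0.5 in size. With ICB, 3 of the 9 genes rose against PBS, Cdkn2a, Cdkn2b and Lats2, and none fell. Over all genes tested 37.8% were called (19% higher and 18.8% lower), so a count of 3 in 9 is near the background and is no result about the set. With 5-FU+ICB 4 genes rose (Cdkn2a, Cdkn2b, Mtap and Lats2), beside 40.7% of all genes called and 21.9% called higher. With 5-FU alone 1 gene rose, Lats2, beside 23% of all genes called and 9.98% called higher. With cisplatin alone no gene of the 9 was called, where edgeR called 0% of all genes and 1.78% had an unadjusted p under 0.05. There 0 of the 9 had an unadjusted p under 0.05, and DESeq2 called 0 of them beside 0.00571% of all genes. With cisplatin+ICB none of the 9 was called beside 6.1% of all genes, 0 had an unadjusted p under 0.05 where 23.6% of all genes had, and DESeq2 called 0 beside 10.1% of all genes. These 5 comparisons share the PBS tumors and are not independent of each other.

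**Figure D2:**
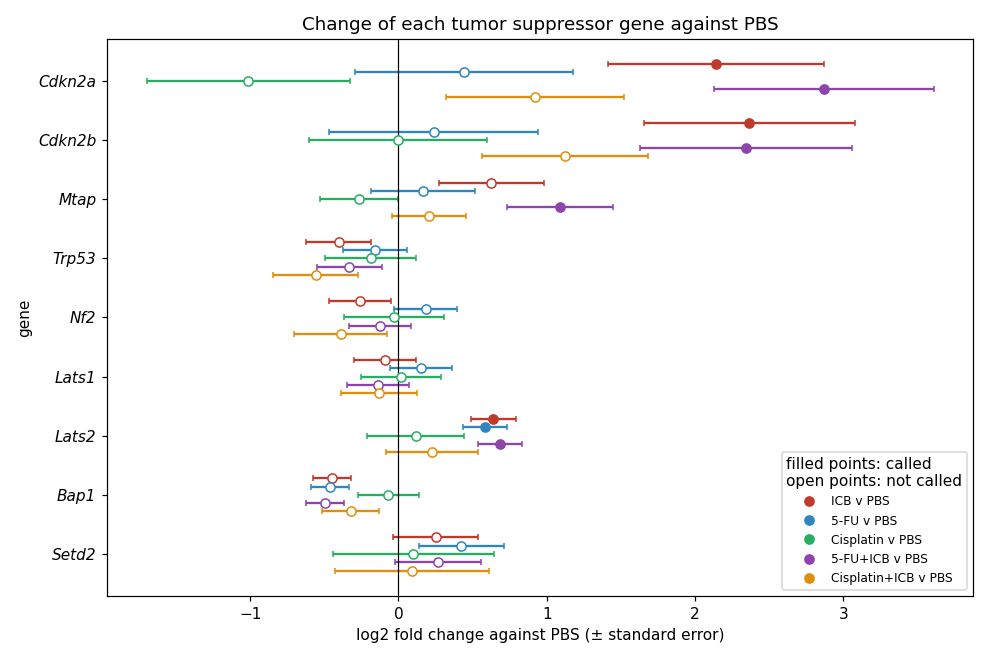
Log2 fold change against PBS (x axis) of each gene in each treatment, with its standard error as a bar, where filled points were called by edgeR (adjusted p under 0.05 and size over 0.5). Cdkn2a, Cdkn2b and Lats2 lie to the right in ICB and 5-FU+ICB, Mtap is filled in 5-FU+ICB alone, and nothing is filled in cisplatin or cisplatin+ICB.

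Cdkn2a was close to the floor in PBS tumors and higher with ICB. The PBS tumors had 0.122, 0.271, 0.289 and 0.232 CPM, from 3, 8, 8 and 7 counts. The ICB tumors had 0.715, 1.14, 1.62, 0.731 and 0.831 CPM, from 21, 40, 41, 24 and 22 counts. The groups did not overlap, and the group means were 0.229 ± 0.0751 (SD, n = 4) and 1.01 ± 0.382 CPM (n = 5). The log2FC was 2.14 (SE 0.73, 4.41-fold, edgeR adjusted p = 0.0259). With only 2 groups in the fit, Cdkn2a failed the filter on low counts in 5 of 11 comparisons, so its tests depend on the groups included. The call rested on few counts and was lost without PBS tumor 1 (adjusted p = 0.0753), PBS tumor 4 (0.0537) or ICB tumor 3 (0.0575), while the log2FC stayed at 1.92 to 2.26 with each of the 9 tumors left out. The 5-FU+ICB tumors had 2.68, 0.217, 0.567, 1.11 and 3.79 CPM, so tumor 2 lay among the PBS tumors and tumors 1 and 5 were the highest of all 28. The group's log2FC against PBS was 2.87 (SE 0.74, 7.31-fold, adjusted p = 0.00581), and without tumor 5 it was 2.32 (adjusted p = 0.0152). Without the 5 tumors low in long genes it was not called (adjusted p = 0.131).

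In the tumors given 5-FU alone Cdkn2a stood at 0.301, 0.180, 0.846, 0.153 and 0.107 CPM. Tumor 3 was the high one. It was also the 5-FU tumor with the highest Ptprc, the pan-leukocyte phosphatase CD45, at 331 CPM, and the lowest Msln, at 44.995 CPM. Tumor 2 of 5-FU+ICB, the low one for Cdkn2a, had the lowest Ptprc of its group (105 CPM, others 342 to 721). Its Msln was the highest there (167 CPM, others 0.499 to 67.7). The part of these markers in the result was not tested. The cisplatin tumors had 0.125, 0, 0.101 and 0.207 CPM, and the count of 0 allows a level of up to 0.114 CPM, from counting error only. The cisplatin+ICB tumors had 0.159, 0.414, 0.118, 0.649 and 0.805 CPM, with tumors 1 and 3 at the level of the cisplatin group. The difference of cisplatin from PBS was -1.01 (log2FC, SE 0.69, adjusted p = 1.00).

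Cdkn2b followed much the same order of groups, from similarly few counts. The PBS tumors had 0.324, 0.508, 0.433 and 0.0332 CPM (8, 15, 12 and 1 counts), and the ICB tumors 1.02, 2.17, 1.78, 1.10 and 2.30 CPM (30, 76, 45, 36 and 61 counts). Every ICB tumor was above every PBS tumor, with means of 1.67 ± 0.594 (SD, n = 5) and 0.325 ± 0.209 CPM (n = 4). The log2FC was 2.37 (SE 0.71, 5.15-fold, adjusted p = 0.0138), and it stayed called with each of the 9 tumors left out in turn (1.98 to 2.71). The 5-FU+ICB tumors had 1.60, 0.310, 0.689, 1.33 and 4.29 CPM. Tumor 2 lay within the PBS range and tumor 5 was again the highest of all 28. The log2FC was 2.34 (SE 0.71, 5.07-fold, adjusted p = 0.0139), and 1.61 (adjusted p = 0.0486) without tumor 5. It was not called with only the 2 groups in the fit (adjusted p = 0.0553) or without the 5 tumors low in long genes (adjusted p = 0.108).

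The levels of Cdkn2b with chemotherapy alone were near those of PBS, at 0.389 ± 0.230 CPM with 5-FU (SD, n = 5) and 0.322 ± 0.157 CPM with cisplatin (n = 4). With cisplatin+ICB the 5 tumors had 0.530, 0.796, 0.265, 1.02 and 0.898 CPM, for a log2FC against PBS of 1.12 (adjusted p = 0.237). All 5 lay below the lowest ICB tumor, the highest of them by a margin that rounding hides (1.0201 against 1.0215 CPM), and 1.48% of all genes likewise did not overlap. The difference from ICB alone was -1.24 (log2FC, unadjusted p = 0.0226, adjusted p = 0.292). Cdkn2a differed from ICB alone by -1.20 (unadjusted p = 0.0353, adjusted p = 0.299). Neither difference passed edgeR's adjustment over all genes, of which 0% were called and 15.9% had an unadjusted p under 0.05, and DESeq2 called 0 of the 9 beside 0.265% of all genes.

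Mtap, unlike its neighbours, was readily counted in all tumors. The PBS tumors had 12.2, 12.4, 9.14 and 11.8 CPM and the 5-FU+ICB tumors 24.6, 11.0, 16.7, 20.7 and 46.3 CPM. Tumor 5 held by far the highest value and tumor 2 lay within the PBS range. The log2FC was 1.09 (SE 0.36, 2.13-fold, adjusted p = 0.0202), but 0.70 (adjusted p = 0.0709) without tumor 5. The call was also lost without PBS tumor 3 (adjusted p = 0.0565). The ICB tumors had 12.0, 18.6, 26.1, 10.6 and 19.7 CPM, with tumors 1 and 4 inside the PBS range, for a log2FC of 0.63 (SE 0.35, adjusted p = 0.160). Cisplatin tumors were the lowest as a group, at 9.43 ± 1.84 CPM (SD, n = 4), and 5-FU tumors (12.8 ± 3.55, n = 5) and cisplatin+ICB tumors (13.0 ± 2.65, n = 5) were near PBS (11.4 ± 1.52, n = 4). An antisense gene, Gm12607, overlaps Mtap, and whether the counting used strand is not given in the sources used here.

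**Figure D3:**
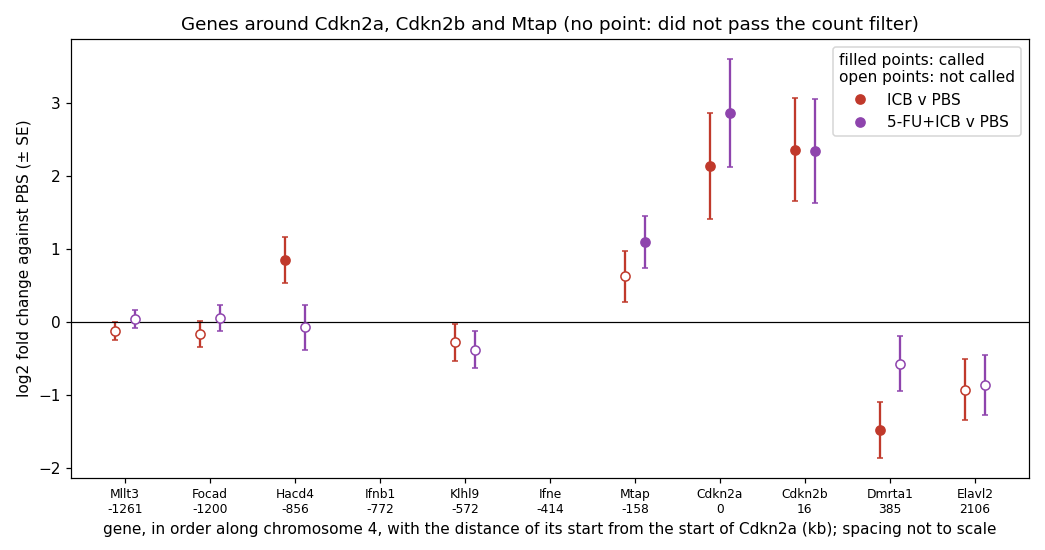
Log2 fold change against PBS with its standard error (y axis) of Cdkn2a, Cdkn2b, Mtap and their chromosome 4 neighbours in ICB and 5-FU+ICB tumors, in order along the chromosome with the distance from the Cdkn2a start in kb (x axis, not to scale); filled points were called. Cdkn2a and Cdkn2b have the highest values, and the neighbours lie near or below 0 except Hacd4 with ICB.

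The genes around the locus did not move as a block. Of 8 neighbours listed, 6 passed the filter. With ICB, Hacd4, a fatty acid elongation dehydratase whose start lies at -856 kb, on the Mtap side, rose from 34.1 to 61.0 CPM (log2FC 0.85, adjusted p = 0.0412). Dmrta1, a DM-domain gene at 385 kb, on the Cdkn2b side, fell from 2.83 to 0.999 CPM (log2FC -1.48, adjusted p = 0.00573). Elavl2, at 2106 kb, had a log2FC of -0.93 (adjusted p = 0.0794), and Klhl9 (-0.28), Focad (-0.17) and Mllt3 (-0.13) were not called. The interferon genes between them were barely counted, with Ifne at or under the floor in 28 of 28 tumors and Ifnb1 in 27. With 5-FU, cisplatin and 5-FU+ICB 0 of the 6 tested neighbours were called.

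Cdkn2a, Cdkn2b and Mtap varied with Ptprc among the tumors rich in it. Cut at the widest gap in its level, the 28 tumors gave 2 clusters of 14, at 74.9 to 154 CPM and at 245 to 721 CPM. Such a cut gives 2 clusters in any data, and whether the tumors form separate classes was not tested. All 5 ICB tumors, 4 of 5 with 5-FU+ICB, 3 of 5 with cisplatin+ICB and 2 of 5 with 5-FU were in the upper cluster, and 0 of the PBS or cisplatin tumors. Correlations on the log2 scale were therefore taken within clusters, as 12 relations with permutation p-values adjusted over them. The upper cluster still mixed treatments and the permutations did not keep these apart, so differences between treatments enter the p-values. Over all 28 tumors, subtracting group means left r with Ptprc of 0.80 for Cdkn2a, 0.72 for Cdkn2b and 0.84 for Mtap. In the upper cluster, Cdkn2a correlated with Ptprc (Pearson r = 0.85, permutation p = 0.00018, adjusted 0.00072; Spearman rho = 0.87, p = 0.00015, adjusted 0.0009), and r was 0.90 without the 2 tumors farthest from the Ptprc median. Cdkn2b did likewise (r = 0.84, p = 0.00027, adjusted 0.00081; rho = 0.73, p = 0.00419, adjusted 0.0124; 0.84 without the 2). Mtap had the highest r over all 14 tumors of the cluster, though not without the 2 (r = 0.95, p = 2e-05, adjusted 0.00024; rho = 0.94, p = 1e-05, adjusted 0.00012; 0.85 without the 2).

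In the lower cluster none of the 3 relations with Ptprc passed, with r of 0.29 for Cdkn2a (permutation p = 0.344, adjusted 0.517), 0.12 for Cdkn2b (p = 0.701, adjusted 0.701) and 0.15 for Mtap (p = 0.628, adjusted 0.701). Without the 2 farthest tumors these were 0.57, 0.17 and 0.23. Whether the clusters differ in these relations was not tested. Against Msln, Mtap had r of -0.88 in the upper cluster (p = 4e-05, adjusted 0.00024; rho = -0.80, p = 0.00093, adjusted 0.00372; -0.73 without the 2 tumors farthest in Msln). For Cdkn2a r was -0.63 (p = 0.0350, adjusted 0.0700; rho = -0.72, p = 0.00517, adjusted 0.0124) and fell to -0.45 without the 2. For Cdkn2b r was -0.65 (p = 0.0179, adjusted 0.0429; rho = -0.38, p = 0.188, adjusted 0.322) and -0.24 without the 2, so that relation rests on those tumors. In the lower cluster no relation with Msln passed, and the signs were not the same for the 3 genes. There Cdkn2a had r of -0.20 (rho = -0.24, adjusted p of r = 0.627), Mtap 0.13 (rho = 0.28, adjusted p of r = 0.701) and Cdkn2b 0.29 (adjusted p = 0.513, rho = 0.56, p = 0.0421, adjusted 0.0842). Relations with these markers were not confined to the 3 genes. Over all 28 tumors, clusters together, rho with Ptprc was -0.77 for Bap1, -0.71 for Trp53 and 0.64 for Lats2. It was -0.58 for Nf2, -0.52 for Lats1 and -0.32 for Setd2. With Msln, rho was 0.84 for Bap1, -0.79 for Lats2 and 0.50 for Trp53, and 0.28, 0.21 and 0.05 for Lats1, Nf2 and Setd2. Subtracting group means left r with Ptprc of -0.55 for Bap1, 0.31 for Lats2 and -0.32 for Trp53.

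**Figure D4:**
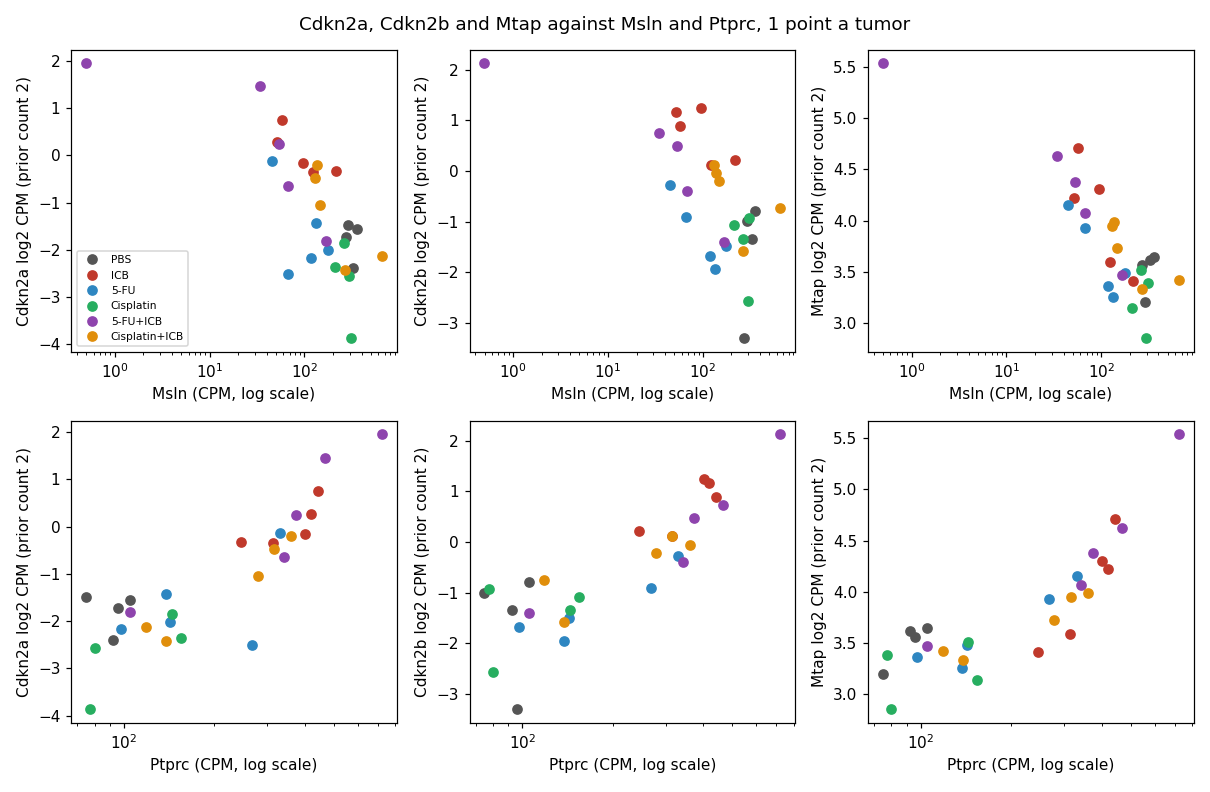
Log2 CPM of Cdkn2a, Cdkn2b and Mtap (y axes, prior count 2) against CPM of Msln (top row) and Ptprc (bottom row; both x axes logarithmic) in the 28 tumors, coloured by group. Of the 2 clusters cut at the widest gap in Ptprc, the lower one holds all PBS and cisplatin tumors, and 5-FU+ICB tumor 5 is the point at the lowest Msln and the highest Ptprc.

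The markers moved with treatment beside these genes. The summed level of 8 leukocyte markers ranged from 458 to 610.1 CPM in PBS tumors, 405 to 809 CPM with cisplatin, 637 to 1968 CPM with 5-FU, 1301 to 3085 CPM with ICB, 528 to 2384 CPM with 5-FU+ICB and 333 to 1617 CPM with cisplatin+ICB. Of the 8 markers, 6 rose with ICB, 7 with 5-FU+ICB, 5 with cisplatin+ICB and 4 with 5-FU. Markers of tumor and mesothelial cells did not move in 1 direction. Msln ranged from 271 to 358 CPM in PBS tumors and from 51.9 to 216 CPM with ICB, which was not called (log2FC -1.51, adjusted p = 0.117). Wt1, near the floor in PBS tumors, was called higher with ICB (log2FC 3.03, mean 0.112 to 0.929 CPM), and Krt19 (1.70), Calb2 (1.02) and Pdpn (0.21) had positive values that were not called, while Krt8 was at -2.29 (2.57 to 0.511 CPM, adjusted p = 0.145). The list's median log2FC was 0.62 over 6 tested markers, 1 higher and 0 lower. With 5-FU+ICB 3 of the 6 were higher (Wt1, Krt19 and Pdpn) and 1 lower, Msln (log2FC -2.28, adjusted p = 0.0238). The Krt19 call rested on tumor 5, which had 48.8 CPM where the other 4 had 0.0930 to 1.85 CPM, and was lost without it (adjusted p = 0.0576). In that fit Wt1 and Pdpn stayed higher, Calb2 became called higher (1.94, adjusted p = 0.0237) and Msln stayed lower (-1.96, adjusted p = 0.00742).

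Markers of other cell types moved too. Of 5 proliferation markers, 3 fell with ICB, Cdk1 (-1.45), Ccnb1 (-1.29) and Bub1 (-1.14), while Top2a (-0.65) and Mki67 (-0.27) were not called. The same 3 fell with 5-FU+ICB and 2 of them, Cdk1 and Ccnb1, with 5-FU. Of 4 endothelial markers 1 was higher with ICB, 2 with 5-FU and all 4 with 5-FU+ICB, Pecam1 at 2.02. Of 6 fibroblast markers 4 were higher with 5-FU, among them Col1a1 (1.45) and Dcn (1.57), 2 with 5-FU+ICB and 0 with ICB. None of the 5 skeletal muscle markers was called in these comparisons, which does not show a similar muscle content. All 5 had positive values with ICB, 5-FU and 5-FU+ICB, with a median log2FC of 2.42, 2.61 and 3.38. Their sum varied widely between tumors, from 0.731 to 4323 CPM. With cisplatin 0 markers of any type were called. The part of cell composition in the differences of Cdkn2a, Cdkn2b, Mtap, Lats2 and Bap1 was not tested.

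Among 11578 or more genes with a mean of at least 5 CPM, those with a pattern most like Cdkn2a over the 28 tumors were Cd8b1 (r = 0.93), Il3ra (0.92) and Cxcr6 (0.92). For Cdkn2b they were Tmem71 (0.92), Rnf114 (0.91) and Gm11131 (0.91), and for Mtap Epsti1 (0.96), Asrgl1 (0.95) and Cdc42se2 (0.94).

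Counts over the gene lists are to be read against all genes tested, of which 19% were called higher and 18.8% lower with ICB, 9.98% and 13% with 5-FU, 21.9% and 18.7% with 5-FU+ICB, and 4.7% and 1.4% with cisplatin+ICB. Of their partners in the RB pathway (13 tested INK4, cyclin D, CDK and RB family genes), 4 were higher and 2 lower with ICB against PBS, with a median log2FC of 0.31 against -0.03 for all genes. Cdk4, the kinase that p16Ink4a and p15Ink4b inhibit, fell from 612 to 272 CPM (log2FC -1.17). Rb1, the pocket protein that CDK4 phosphorylates, rose by 0.71. With 5-FU+ICB 5 were higher and 2 lower, Cdk4 at -1.11 and the cyclins Ccnd2 and Ccnd3 at 1.08 and 0.89. With 5-FU 2 were higher and 2 lower, and with cisplatin or cisplatin+ICB 0 were called. A list of 12 tested genes around Mtap held methionine salvage and polyamine synthesis genes, as well as Prmt5 and Wdr77, which belong to neither. Of the 12 genes, 0 rose and 9 fell with ICB, where 18.8% of all genes were lower, with a median log2FC of -0.87. The proliferation markers Cdk1, Ccnb1 and Bub1 fell beside them, and their part was not tested. Odc1, which makes putrescine, was at -1.26, and the spermidine and spermine synthases Srm and Sms were at -1.04 and -1.10. The count of this list was 9 lower with 5-FU+ICB, 7 lower with 5-FU and 0 with cisplatin. With cisplatin+ICB 3 were lower, Srm, Prmt5 and Wdr77.

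Trp53 was the most abundant of the 9 per length, and no comparison called it. PBS tumors had Trp53 at 171, 128, 227 and 186 CPM and the ICB tumors 129, 104, 113, 176 and 136 CPM, with overlapping ranges and a log2FC of -0.40 (adjusted p = 0.145). The 5-FU+ICB tumors had 116, 225, 146, 109 and 98.4 CPM. Tumor 2 was the high one, and without it Trp53 was called lower than PBS (log2FC -0.55, adjusted p = 0.0229). In cisplatin+ICB, tumor 1 had 42.8 CPM and the others 133 to 151 CPM (log2FC of the group against PBS -0.56, adjusted p = 0.253). Tumors given 5-FU (157 ± 34.6 CPM, SD, n = 5) and cisplatin (156 ± 31.4 CPM, n = 4) overlapped with PBS (178 ± 40.8 CPM, n = 4). Of the 31-base words of the Trp53 transcripts 10.2% occur in other genes, mostly the pseudogene Trp53-ps, which was at or under the floor in 27 tumors.

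Of 22 tested p53 pathway genes, 4 were higher and 8 lower with ICB, where 37.8% of all genes were called and 18.8% were lower, with a median log2FC of -0.39. Those higher were the death receptor gene Fas (1.88), the proapoptotic BH3-only gene Pmaip1 (2.18), Btg2 (1.46) and Mdm4 (0.75), which encodes an inhibitor of p53. Phlda3 (-1.15) and Plk2 (-1.16) were among those lower. The classical targets Cdkn1a (0.07) and Mdm2 (-0.26) were not called. With 5-FU 3 were higher and 5 lower, Fas at 1.25 and Gdf15, Bbc3 and Bax at -1.79, -0.95 and -0.72. With 5-FU+ICB 4 were higher and 9 lower, and with cisplatin 0 were called. With cisplatin+ICB 4 were higher and 1 lower, Cdkn1a, the CDK inhibitor p21, at 0.66 among the former. Fas is also expressed by lymphocytes, and the part of the leukocyte markers in these counts was not tested.

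Of the 3 Hippo pathway members among the 9 genes, Lats2 was called and Nf2 and Lats1 were not. The PBS tumors had 32.3, 25.7, 51.0 and 46.0 CPM and the ICB tumors 52.2, 63.7, 56.6, 56.8 and 63.5 CPM. The ranges did not overlap, though ICB tumor 1 was barely above PBS tumor 3. The log2FC was 0.64 (SE 0.15, 1.56-fold, adjusted p = 0.00335) and stayed called with each of the 9 tumors left out. It was not called without the 5 tumors low in long genes, PBS tumors 1 and 2 among them (log2FC 0.36, adjusted p = 0.0741). The 5-FU+ICB tumors had 67.9, 63.7, 58.7, 53.1 and 59.6 CPM, all above the PBS tumors, with a log2FC of 0.68 (SE 0.15, 1.61-fold, adjusted p = 0.00244), and 0.69 (adjusted p = 0.00456) without tumor 5. Tumors given 5-FU alone had 52.7, 49.7, 68.9, 52.5 and 61.2 CPM, with tumor 2 just inside the PBS range, and a log2FC of 0.58 (SE 0.15, adjusted p = 0.0123). That call was lost without PBS tumor 1 (adjusted p = 0.0507) or PBS tumor 2 (log2FC 0.45). In the model of all 6 groups the adjusted p of Lats2 was 0.0870 with ICB, 0.164 with 5-FU and 0.0615 with 5-FU+ICB.

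Cisplatin tumors had Lats2 at 50.7, 36.7, 47.0 and 33.0 CPM, within the PBS range. Cisplatin+ICB tumors had 13.7, 51.6, 54.4, 45.4 and 59.6 CPM, with tumor 1 the lowest of the 28. Without tumor 1, Lats2 was called higher with cisplatin+ICB than with PBS (log2FC 0.54, adjusted p = 0.0193), in a fit that called 35.3% of all genes. Of the 31-base words of Lats2, 41.8% are shared with the overlapping gene Gm49361, which was at or under the floor in 26 of 28 tumors.

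Nf2 and Lats1 did not pass in any comparison. Nf2 had 112, 78.6, 177 and 165 CPM in PBS tumors and 112, 98.4, 105, 115 and 109.7 CPM in ICB tumors, so the ICB tumors sat inside the PBS range (log2FC -0.26). Its group means ran from 101 ± 41.0 CPM with cisplatin+ICB (SD, n = 5) to 149 ± 24.5 CPM with 5-FU (n = 5). Lats1 had 78.0, 56.5, 107 and 97.1 CPM in PBS tumors and 78.2, 66.2, 67.2, 92.0 and 83.5 CPM in ICB tumors (log2FC -0.09), and its group means had the narrowest spread of the 9, from 75.4 ± 25.8 (5-FU+ICB) to 92.5 ± 14.98 CPM (5-FU). Of 20 tested Hippo pathway genes, 2 rose and 2 fell with ICB. The kinase genes Stk4 (MST1) and Taok3 rose by 1.09 and 1.15, and Wwtr1, which encodes TAZ, and Tead2, a DNA-binding partner of YAP and TAZ, had log2FC of -0.92 and -1.18. Yap1 itself was at -0.31 and was not called.

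Of 8 tested YAP target genes, a list that includes Lats2, 1 rose and 1 fell with ICB, the latter Birc5 (-1.25), a cell division gene. With 5-FU 3 rose and 1 fell. The 3 were Lats2, Ccn1 (1.82), a secreted matrix protein gene, and Amotl2 (1.31), an angiomotin that binds YAP and stands in the Hippo list too. With 5-FU+ICB 1 rose and 2 fell, Ankrd1 at -1.43 among the latter, and with cisplatin 0 were called.

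Bap1 was lower than PBS in ICB, 5-FU and 5-FU+ICB tumors by just under the fold change threshold. In PBS tumors it had 85.4, 101, 71.6 and 70.6 CPM and in ICB tumors 61.9, 56.1, 56.2, 62.7 and 61.0 CPM, without overlap. The log2FC was -0.45 (SE 0.13, adjusted p = 0.0109). With Cdkn2a, Cdkn2b, Lats2 and Bap1, 4 of the 9 genes did not overlap between ICB and PBS, beside 37.4% of all genes. The 5-FU tumors had 59.8, 68.8, 51.4, 60.5 and 58.3 CPM (log2FC -0.46, SE 0.13, adjusted p = 0.0175) and the 5-FU+ICB tumors 55.6, 69.2, 57.2, 54.4 and 52.7 CPM (-0.50, SE 0.13, adjusted p = 0.00599), each tumor again below every PBS tumor, as 27.1% and 25.5% of all genes did not overlap in these comparisons. For 5-FU+ICB the size was 0.496 before rounding. Leaving out PBS tumor 3 or 4 took Bap1 past the threshold in all 3 comparisons, to -0.54 and -0.53 with ICB. Leaving out PBS tumor 2, the highest of its group, shrank the difference to -0.31 with ICB (adjusted p = 0.0482), -0.35 with 5-FU+ICB (0.0258) and -0.32 with 5-FU (0.0797). Without the 5 tumors low in long genes it was -0.17 with ICB (adjusted p = 0.209), -0.17 with 5-FU (0.369) and -0.19 with 5-FU+ICB (0.231).

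The cisplatin tumors had Bap1 at 64.6, 81.6, 76.8 and 88.8 CPM, tumor 1 below and the others within the PBS range. With cisplatin+ICB, tumor 1 had 104 CPM, the highest of the 28, and the others had 54.0, 57.8, 54.2 and 54.5 CPM, at the level of the ICB tumors. Without tumor 1 the difference from PBS was called (log2FC -0.51, adjusted p = 0.0122). Between the chemotherapies alone, Bap1 was lower with 5-FU than with cisplatin by an amount that did not pass (log2FC -0.38, adjusted p = 0.280), 1 of the 9 with an unadjusted p under 0.05 beside 15.5% of all genes. Of 10 tested genes of the BAP1 complexes, 2 were higher and 1 lower with ICB. Asxl2 (0.52) and Mbd6 (0.92) encode subunits and rose, and Foxk2 (-0.66), a forkhead factor that recruits the complex, fell.

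Setd2 varied more among the PBS tumors than between groups. Setd2 stood at 53.7, 32.1, 134 and 104 CPM in PBS tumors, while the ICB tumors had 99.3, 84.98, 85.1, 107 and 85.7 CPM and the cisplatin tumors 115, 74.6, 107 and 49.0 CPM. PBS tumors 1 and 2 and cisplatin tumor 4, the low ones, were those with a low share of counts in long genes. In cisplatin+ICB, tumor 1 had 8.37 CPM and the others 102, 124, 99.0 and 93.0 CPM. No comparison called Setd2, and its log2FC with 5-FU was 0.42 (adjusted p = 0.275). Of 6 tested genes for methylation of H3 lysine 36, only the dimethyltransferase gene Nsd1 was called, higher with ICB (1.55), 5-FU (1.02) and 5-FU+ICB (1.47). Setd2 has a long transcript, and the share of counts in long genes moved with it and with Lats1, Nf2 and Trp53.

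Over the 28 tumors Setd2 correlated with that share at r = 0.91 (rho = 0.95, permutation p = 1e-05, the smallest that 100000 permutations can give; adjusted over 30 relations 3e-05), and r was 0.94 without the 2 tumors farthest from the median share. Subtracting group means left r = 0.94. Setd2 and Lats1, with longest coding transcripts of 8350 and 7209 bases, are themselves among the genes whose counts form the share. Lats1 had r = 0.88 (rho = 0.82, 0.80 without the 2), Nf2 0.83 (rho = 0.71, 0.70 without the 2) and Trp53 0.69 (rho = 0.57, 0.50 without the 2), with adjusted p-values of 3e-05, 3e-05 and 0.0003. For Lats2 r was 0.68 (rho = 0.21) and for Bap1 -0.54 (rho = -0.15), but 0.28 and -0.18 without the 2 tumors, so these rest on cisplatin+ICB tumor 1 and PBS tumor 2. For Cdkn2a (-0.16), Cdkn2b (-0.29) and Mtap (-0.33) the adjusted p of r was 0.446, 0.166 and 0.115. By rank, Mtap (rho = -0.51, adjusted p = 0.00879) and Cdkn2b (rho = -0.45, adjusted p = 0.0227) were lower where the share was higher and Cdkn2a was not shown to be (rho = -0.30, adjusted p = 0.151). Without the 2 tumors r was -0.58 for Mtap, -0.44 for Cdkn2b and -0.39 for Cdkn2a. Of 11578 or more candidate genes, those most like Setd2 in pattern were Rbm6, Zfp609 and Upf2 (r = 0.99 each), and those most like Bap1 were led by Wdr92 (r = 0.97).

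**Figure D5:**
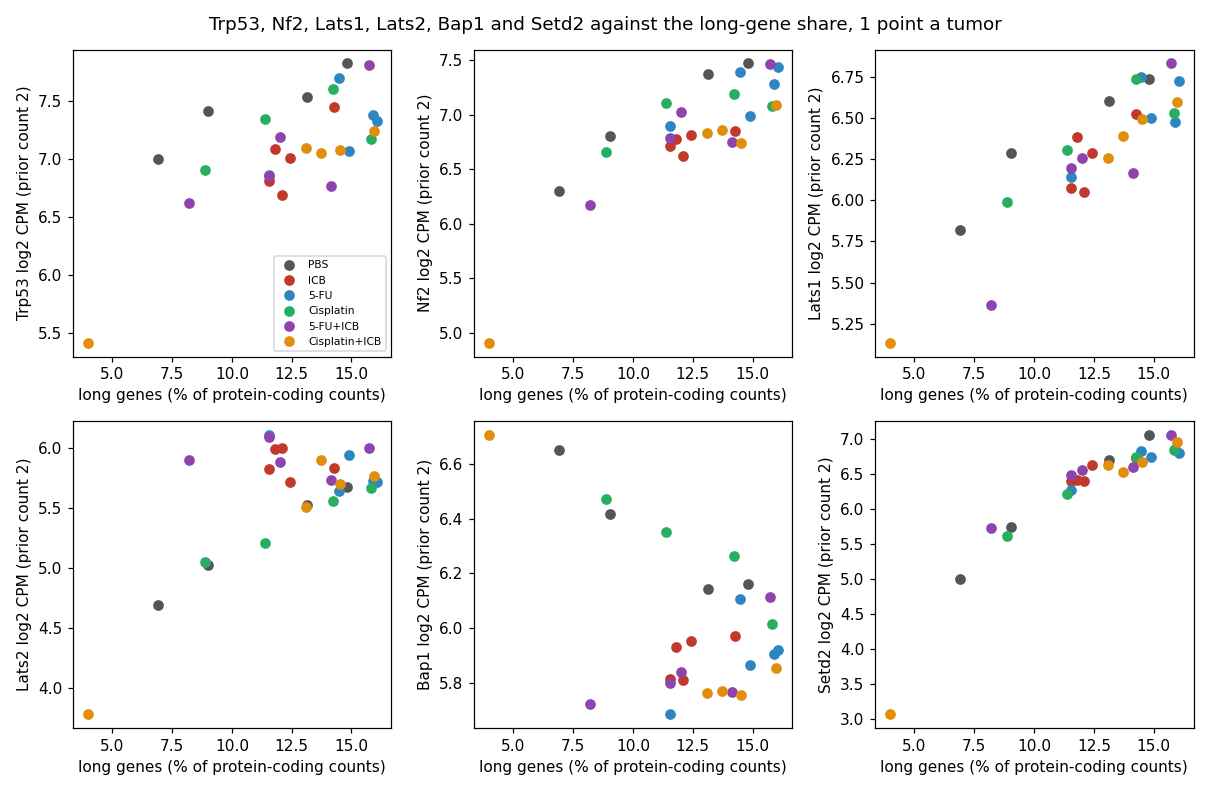
Log2 CPM of Trp53, Nf2, Lats1, Lats2, Bap1 and Setd2 (y axes, prior count 2) against the share of protein-coding counts in genes with a coding transcript of at least 6000 bases (x axes, percent), 28 tumors coloured by group. Setd2, Lats1, Nf2 and Trp53 rise along the axis, and cisplatin+ICB tumor 1 is the point at 3.96%.

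Without the 5 tumors whose share was under 10%, which left 2 PBS tumors, 2 of the 9 genes were called with ICB, where 20% of all genes were. Cdkn2b stayed higher (log2FC 2.94, adjusted p = 0.0319) and Nf2 became called lower (-0.58, adjusted p = 0.0249). Cdkn2a had 2.02 (adjusted p = 0.114), Lats2 0.36 (0.0741) and Bap1 -0.17 (0.209). With 5-FU+ICB 0 genes were called, where 7.18% of all genes were, with Cdkn2a at 2.202 (adjusted p = 0.131), Cdkn2b at 2.18 (0.108), Mtap at 0.89 (0.146) and Lats2 at 0.41 (0.0833). With 5-FU 0 were called beside 0.748%, with Lats2 at 0.32 (adjusted p = 0.232). Over the 6 groups 31.7% of all genes differed, and of the 9 genes 5 did. These were Cdkn2a, Cdkn2b, Nf2 (adjusted p = 0.0221), Lats2 (0.0428) and Bap1 (0.0319), and Mtap had an adjusted p of 0.0528.

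Adding ICB to a chemotherapy, or a chemotherapy to ICB, called none of the 9 genes. For 5-FU+ICB against 5-FU, where edgeR called 0.0112% of all genes, the log2FC was 2.43 for Cdkn2a (adjusted p = 0.135), 2.10 for Cdkn2b (0.159) and 0.92 for Mtap (0.198). All 3 had an unadjusted p under 0.05, as 16.6% of all genes had, and DESeq2, which called 2.97% of all genes here, called Cdkn2a and Cdkn2b. For cisplatin+ICB against cisplatin, where 0% of genes were called, Cdkn2a had 1.93 (adjusted p = 0.168) and was the 1 gene with an unadjusted p under 0.05, beside 14.2% of all genes. DESeq2 called it beside 4.2% of all genes, and so did edgeR without cisplatin+ICB tumor 1 (2.17, adjusted p = 0.0371), a fit that called 11.9% of all genes. For 5-FU+ICB against ICB, with 0.229% of genes called, 0 of the 9 and 10.9% of all genes had an unadjusted p under 0.05, and DESeq2 called 0 beside 1.68% of all genes. Between the combinations, 5-FU+ICB and cisplatin+ICB, 0.297% of genes were called and 0 of the 9. There Cdkn2a (1.93, adjusted p = 0.0944), Mtap (0.88, adjusted p = 0.0906) and Cdkn2b (1.21, adjusted p = 0.189) had an unadjusted p under 0.05, as did 25.7% of all genes, and DESeq2 called Cdkn2a beside 8.32% of all genes. For 5-FU against cisplatin 0.362% of genes and 0 of the 9 were called, and DESeq2 called 0 beside 3.85% of all genes.

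Whether the effect of ICB differed with and without a chemotherapy was tested as an interaction. Of 18 such tests, 9 genes by 2 chemotherapies, 0 had an adjusted p under 0.05, where 0.0893% of all genes did for 5-FU (16 of 17916) and 0% for cisplatin. So few genes passed that the count of 0 says nothing particular of the 9. The smallest was that of Lats2 with 5-FU (interaction -0.54 on the log2 scale, adjusted p = 0.122), followed by Bap1 with 5-FU (0.41, adjusted p = 0.167).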

How the data were processed

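Total RNA of 28 whole tumors was sequenced as 100-base single-end reads (HiSeq). Per the labels and methods, the authors quantified transcripts with kallisto 0.46.0 on mm10 and summed them per gene with tximport, after bcl2fastq 2.20.0.422. They deposited estimated counts per gene in 2 matrices, 1 for the 5-FU groups and 1 for the cisplatin groups, with the same 9 PBS and ICB tumors in both; 23.7% of values were not whole, and all were rounded. Some gene symbols in the matrices had become dates. Other experiments of the study were not analysed here.

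Groups came from the labels. Counts were tested in R 4.3.3 with edgeR 4.0.16 (filterByExpr, TMM, quasi-likelihood, the 4 groups of a matrix together, 17916 and 17819 genes), and in a joined model of the 28 tumors (18521 genes) for all 6 groups and for comparisons across matrices. P-values were Benjamini-Hochberg adjusted over all genes tested. Tests were tried on simulated data. Alternatives were DESeq2 1.42.0, its size factors, no filter, other sets of groups in the fit, a replicate block, each tumor left out, no fold change threshold, a prior count of 0.5, a cut-off of 1 CPM and, chosen after seeing the data, no tumors low in long genes, a fit of cisplatin against PBS without cisplatin+ICB tumor 1 and the other matrix for ICB. The clusters on Ptprc were cut at its widest gap, also after seeing the data. Depth limits Cdkn2a and Cdkn2b, and intervals and floors cover counting error only.

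Members and gene lists were chosen with earlier results of these data known. Named were all 9 members, of each list up to 4 called genes of smallest adjusted p per comparison plus genes used as background to a member, the 3 genes most correlated with a member among those with a mean of at least 5 CPM, and the chromosome 4 neighbours. Positions are from GENCODE M21 (GRCm38), promoters from RefSeq (GRCm38.p6). No batch is given in the labels.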

Additional observations from a re-analysis of the deposited data

Results flagged for a closer look

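In 7 of 54 sets of 1 gene in 1 group of tumors, the highest or lowest tumor lay far from the rest by Dixon's test at 95%, which chance gives in about 1 of 20 sets. Of these, 6 were the same library, cisplatin+ICB tumor 1. It was low for Trp53 (42.8 CPM, others 133 to 151), Nf2 (29.99 CPM, others 107 to 136), Lats1 (35.1 CPM, others 76.3 to 96.7), Lats2 (13.7 CPM, others 45.4 to 59.6) and Setd2 (8.37 CPM, others 93.0 to 124), and high for Bap1 (104 CPM, others 54.0 to 57.8). The same library had the lowest share of counts in long genes, 3.96%, and a TMM factor of 0.685. The remaining one was Setd2 in 5-FU tumor 3, at 77.3 CPM against 108 to 117 CPM in the other 4.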

How the results depend on the processing

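Of 2011 values of single genes under alternatives, 1848 kept their direction and side of the threshold, 23 lost a call, 34 gained one, 106 changed sign without being called and 0 reversed a call. Numbers of called genes moved as follows, with the share of all genes called in the same fit in parentheses. For 5-FU against PBS, where 1 was called (23%), they were 2 with no fold change threshold (25.9%), 0 with the 6 groups joined (4.45%), 0 without the 5 tumors low in long genes (0.748%) and 0 to 2 with 1 tumor left out (7.87 to 25.9%). For 5-FU+ICB against 5-FU, where 0 were called, they were 2 with DESeq2 (2.97%) and 0 to 3 with 1 tumor left out (0 to 10.9%). For cisplatin+ICB against cisplatin (0) they were 1 with DESeq2 (4.2%), 1 without the 5 tumors (8.5%) and 0 to 1 with 1 left out (0 to 11.9%). For 5-FU+ICB against cisplatin+ICB (0) they were 1 with DESeq2 (8.32%) and 0 to 2 with 1 left out (0.00541 to 11.6%), and for cisplatin+ICB against PBS (0) 0 to 2 (0 to 35.3%). For 5-FU+ICB against PBS (4) they were 0 without the 5 tumors (7.18%) and 3 to 6 with 1 left out (30.6 to 48.8%), and for ICB against PBS (3) 2 to 4 (28.4 to 39.8%). Genes differing over the 6 groups (3) were 5 without the 5 tumors (31.7%) and 3 to 5 with 1 left out (22.5 to 52.7%). The share of all genes moved between these fits too, so the counts are no result about the 9 genes. At a cut-off of 1 CPM, 2 genes were near absent in place of 1. The cause of these changes was not tested.

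Replicate numbers did not pair tumors: same-numbered tumors' deviations had a mean correlation of 0.0187 in the 5-FU matrix and -0.0480 in the cisplatin matrix, and 2 of 19 and 5 of 18 tumors correlated best with their own number. With the replicate block, 2 genes were called for ICB against PBS (33.7% of all genes, Cdkn2a 2.03, adjusted p = 0.0516), 3 for 5-FU+ICB against PBS (35.8%, Mtap 0.85, adjusted p = 0.0620) and 2 differed over the 6 groups (18.5%, Mtap adjusted p = 0.0520), each share lower than without the block. With 2 groups alone in the fit, Cdkn2a failed the filter on low counts in 5 of 11 comparisons and had no value there. That fit gave Cdkn2b an adjusted p of 0.0553 for 5-FU+ICB against PBS, and the cisplatin matrix gave Lats2 0.61 (adjusted p = 0.149) for ICB against PBS. With the 6 groups joined, Bap1 was called for 5-FU+ICB (-0.50, adjusted p = 0.0275).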
